A study of Mus musculus with 10 samples.

Results

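The TNF superfamily and NF-kB genes are the cytokine ligands related to tumour necrosis factor, their receptors, the adaptor proteins that bind those receptors, and the transcription factors and inhibitors of the NF-kB pathway. They were chosen by gene symbol (*Tnf*, *Tnfsf*, *Tnfrsf*, *Tnfaip* and *Traf* genes, *Fas*, *Fasl*, *Cd27*, *Cd40*, *Ltbr*, the NF-kB subunits and the IkB genes *Nfkbia*, *Nfkbib*, *Nfkbie* and *Nfkbiz*) and by a base mean above 0. Of the 25232 genes listed, 64 had such a symbol, and the 63 with a base mean above 0 are described here, out of 20973 genes above 0 in all. The remaining gene, *Tnfsf4*, which encodes the ligand of *Tnfrsf4*, was listed at 0.

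The study sequenced RNA of the spinal cord of 5 wild type (WT) and 5 SOD1 G93A female mice of strain C57BL/6 at 90 days of age. The methods name the lumbar region, the line B6.Cg-Tg(SOD1-G93A)1Gur/J on C57BL/6J and WT littermates, and the SOD1 G93A mice carry a human *SOD1* transgene with a mutation of familial amyotrophic lateral sclerosis at a high copy number, on top of their own mouse *Sod1*. The deposited table gives each gene 1 level, the base mean, which is the authors' mean over all 10 libraries of the read counts divided by the size factors of the libraries. WT and SOD1 G93A mice enter this mean together, so the values below are levels in the tissue of both genotypes pooled, and the genotypes were not compared here. In a bulk tissue, fewer cells of a type and less RNA per cell cannot be told apart.

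Ligands of the TNF superfamily are mostly membrane proteins that act as trimers and cluster their receptors. Receptors with a death domain can start cell death, and many receptors recruit TRAF proteins, which activate the kinases that mark the IkB inhibitors for destruction and so free the NF-kB dimers to enter the nucleus. In the nervous system the family is known for microglial cytokine release, for the control of neuron and oligodendrocyte survival and for B and T cell responses in inflammation.

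The depth behind the base means could be read from the lowest values, because 1 read in 1 library adds a fixed amount to the base mean that depends only on the library. Genes with a single read fell on exactly 10 values shared by 716 genes, which gave size factors from 0.84 to 1.15 for the 10 libraries. The base means of all genes sum to 22158933, so a library held roughly 18614755 to 25516681 counted reads. Markers of the labelled tissue were present. Neuronal genes had base means of 3498 to 59050, astrocyte genes of 1944 to 56290, oligodendrocyte genes of 5348 to 319615 and microglial genes of 110.6 to 3041. The motor neuron genes *Chat* and *Slc18a3* had 735 and 1169.8, *Mnx1* and *Isl1* 37.3 and 45.6, and the Hox genes of the lumbar segments 79.5 to 489. Of the forebrain markers, *Emx1* was at 0.993 and *Neurod6* at 78.9. Lymphocyte markers were low, with 4 T cell markers at 1.26 to 5.57 and the B cell markers *Ms4a1* and *Cd79a* at 4.33 and 10.6, and the haemoglobin genes *Hba-a1* and *Hbb-bs*, which have near-identical copies, were both listed at 0.

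Most members were measurable but low. A base mean of at least 10 was found for 52 of the 63 (82.5%), where 75.9% of all genes above 0 reached it. Their median base mean was 94.95, against 247 over all genes above 0, and 18 of the 63 lay above that median gene. Together the members held 0.0841% of the summed base means of all genes. The 5 highest, *Tnfrsf21*, *Traf3*, *Tnfrsf19*, *Traf7* and *Tnfaip1*, took 48.8% of the members' sum (95% exact binomial interval 48.6 to 49.1%, which covers counting error only). Reads that share a PCR origin are not independent molecules, and neither this interval nor those that follow hold the spread between mice, which a pooled mean does not show.

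**Figure D1:**
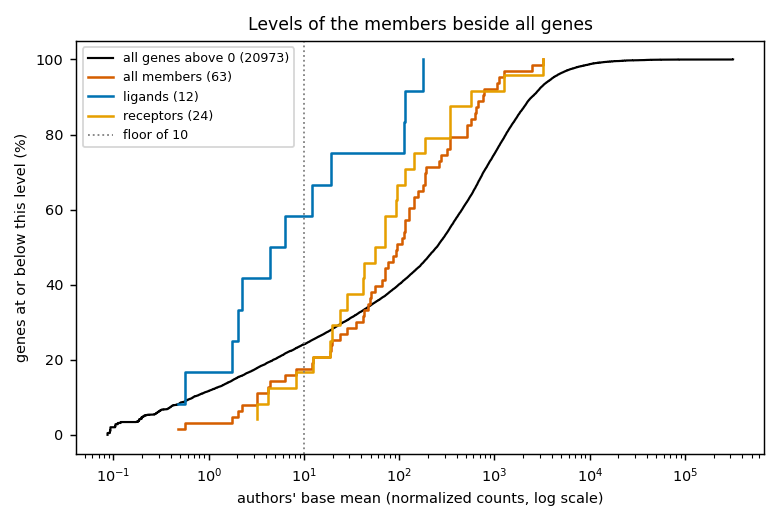
Cumulative share of genes (percent, vertical axis) at or below each base mean (normalized counts, log scale) for all 20973 genes above 0, the 63 members, the 12 ligands and the 24 receptors; the dotted line is the base mean of 10. From a base mean of 0.562, the level of *Tnfsf14*, the curve of the ligands lies to the left of the others, with 7 of 12 ligands under 10. The curve of the members crosses that of all genes and ends at 3209.9, the level of *Tnfrsf21*.

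Because long genes collect more reads, levels of different genes are compared below as base mean per kilobase of exon, with exon lengths from the GENCODE M21 annotation of GRCm38. The median gene above 0 had 63.5 on this scale and the median member 25.5, and again 18 of the 63 lay above the median gene. Medians per kilobase differed between the roles. The 12 ligands had a median of 1.97, the 24 receptors of 20.7, the 8 *Tnfaip* genes of 20.4, the 5 NF-kB subunits of 41.0, the 7 TRAF genes of 79.5 and the 4 IkB genes of 134.

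**Figure D2:**
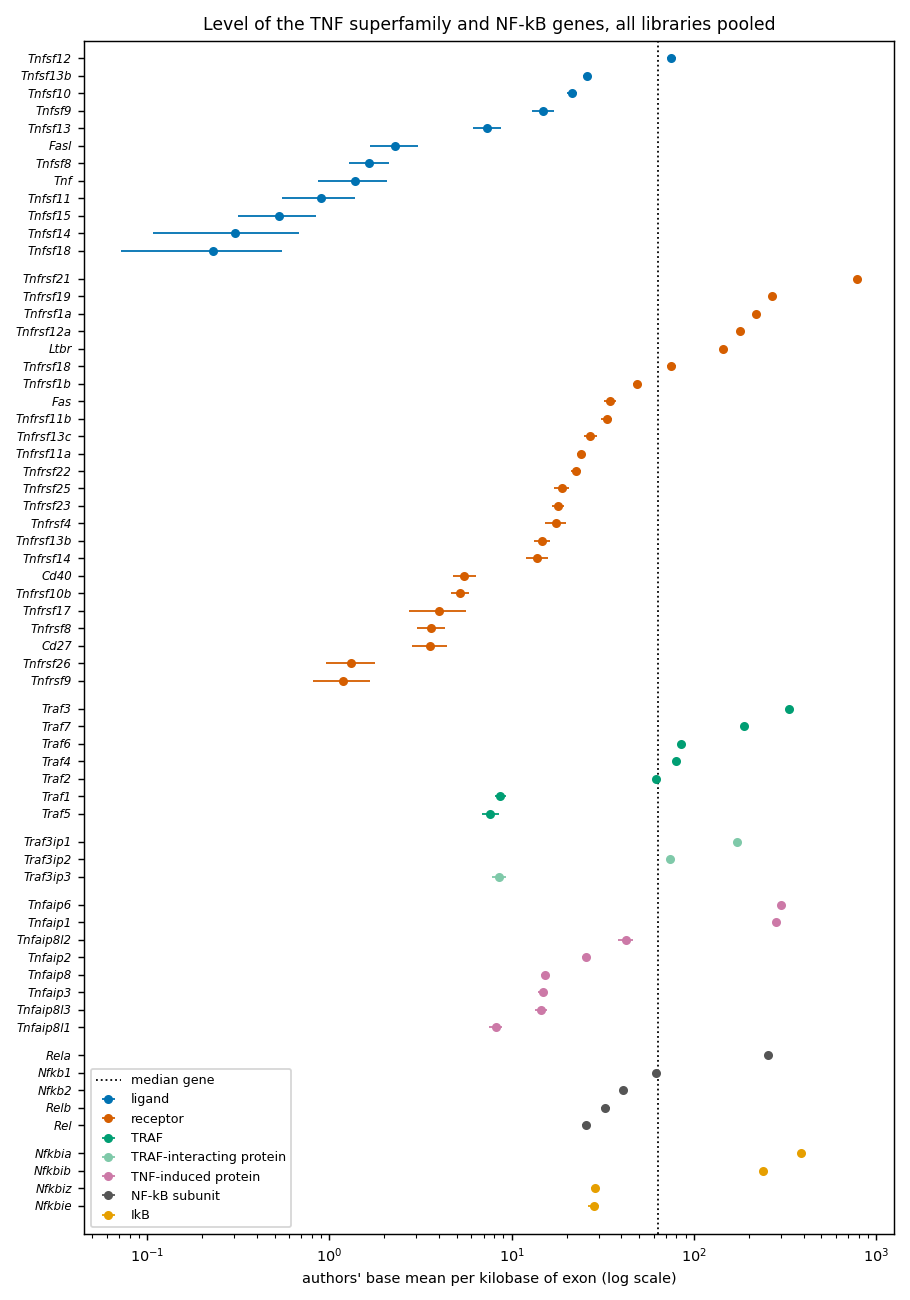
Base mean per kilobase of exon (log scale) of the 63 members, grouped by role and ordered by level; bars are 95% Poisson intervals for counting error only, and the dotted line is the median of all genes above 0. Ligands reach from 0.230 to 75.2, receptors from 1.18 to 781, and the bars are wide at the low ligands and shorter than the symbols at the high genes.

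The ligands are given as an upper and a lower set, split at the base mean of 10. *Tnfsf12*, which encodes TWEAK, was the highest at a base mean of 113.9 or 75.2 per kilobase (95% Poisson interval 70.9 to 79.7). *Tnfsf13b*, which encodes the B cell survival factor BAFF, followed with 178 or 25.9 per kilobase, and *Tnfsf10*, the gene of the death ligand TRAIL, with 112.7 or 21.4 per kilobase. Their intervals per kilobase do not overlap, although per kilobase of coding sequence *Tnfsf13b* came first at 186 and *Tnfsf12* second at 144. *Tnfsf9*, the ligand of the T cell receptor 4-1BB, had a base mean of 19.2, and *Tnfsf13*, the gene of the plasma cell factor APRIL, had 12.02. All other ligands were under 10.

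The lower set holds the best known cytokines of the family. The base mean of *Tnf* itself, which lies at 35199381 to 35202007 on chromosome 17, was 2.26 (interval 1.43 to 3.39). *Fasl*, the ligand of the death receptor Fas, had 4.43, and *Tnfsf8*, the ligand of CD30, had 6.31. *Tnfsf11*, which encodes the bone and lymph node cytokine RANKL, had 2.01 and *Tnfsf15* had 1.78. *Tnfsf14*, the gene of LIGHT, had 0.562 and *Tnfsf18*, the gene of the GITR ligand, had 0.474. Each of these 7 has an interval per kilobase that overlaps that of its neighbour in the order, while the intervals of *Fasl*, *Tnfsf8* and *Tnf* all lie above those of *Tnfsf15*, *Tnfsf14* and *Tnfsf18*. The 0 reads of *Tnfsf4* allow a base mean of up to 0.298, the level that 3 reads over all libraries would give.

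At such levels a base mean is a sum of a few reads, and below 1 it could be taken apart into reads per library. All 2451 genes with a base mean under 1 matched whole reads in exactly 1 way, to within 1e-09. *Tnfsf14* had 6 reads in 5 of 10 libraries and *Tnfsf18* had 5 reads in 3 libraries, with at most 2 reads in a library for both. Above 1 a base mean can match whole reads by chance, so *Tnf*, *Tnfsf11* and *Tnfsf15* were not taken apart, and their base means stand for about 22.7, 20.2 and 17.9 reads over all 10 libraries. The libraries are known here only by their size factors and carry no genotype, so the reads cannot be assigned to WT or SOD1 G93A mice.

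The receptors spanned the widest range of the roles, from 1.18 to 781 per kilobase. *Tnfrsf21*, which encodes the death domain receptor DR6 of neurons and oligodendrocytes, was the highest member of all, with a base mean of 3209.9 or 781 per kilobase (interval 773 to 790). It lies on chromosome 17 from 43016555 to 43089189 and had a higher level per kilobase than 93.7% of all genes above 0. *Tnfrsf19*, which encodes the orphan receptor TROY, had 1271 or 268 per kilobase, so *Tnfrsf21* was 2.91 times as high (interval 2.85 to 2.97, or 1.65 times per kilobase of coding sequence). *Tnfrsf1a*, the broadly expressed TNF receptor with a death domain, had 568 or 219 per kilobase. *Tnfrsf12a*, the TWEAK receptor, had 344 or 178 per kilobase, and *Ltbr*, the lymphotoxin beta receptor, had 340.2 or 144.5 per kilobase. *Tnfrsf18*, known as GITR on T cells, was the only other receptor above the median gene, at 75.2 per kilobase, and 27.2% of its exon bases are shared with an antisense gene that the table does not list.

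The TNF receptors differed in level. *Tnfrsf1a* was 4.51 times as high per kilobase as *Tnfrsf1b* (interval 4.28 to 4.75), the receptor without a death domain that is found on immune and endothelial cells and had a base mean of 185.7. Per kilobase of coding sequence the ratio was 2.93. *Fas*, the receptor of the Fas ligand, had a base mean of 71.2. The RANKL receptor gene *Tnfrsf11a* had 144.0, and *Tnfrsf11b*, which encodes the soluble RANKL decoy osteoprotegerin, had 93.3. Per kilobase *Tnfrsf11b* was 1.38 times as high as *Tnfrsf11a*, but 1.01 times per kilobase of coding sequence. *Tnfrsf22* had 94.95, *Tnfrsf23* had 71.2 and *Tnfrsf26* had 4.25. They lie side by side on chromosome 7 and resemble each other, so that reads shared between them would not count as uniquely mapped, and their levels are uncertain.

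The other receptors, several of them known from lymphocytes, had base means of at most 55.2, the level of the BAFF receptor gene *Tnfrsf13c*. Among them, *Tnfrsf13b*, which encodes TACI, had 41.6, and *Tnfrsf17*, the plasma cell receptor BCMA, had 3.25. *Tnfrsf25* had 43.0, *Tnfrsf10b*, the mouse TRAIL death receptor, had 28.5, *Tnfrsf4* had 23.7 and *Tnfrsf14* had 19.8. *Cd40*, the receptor of B cells and antigen presenting cells, had 18.7, and *Tnfrsf8* had 12.5. Under 10 were *Cd27* with 8.25, *Tnfrsf26*, *Tnfrsf17* and *Tnfrsf9*, the last at 3.22. For comparison, the T cell marker *Cd3e* was at 2.73, and the B cell markers were at the levels given above. The part of lymphocytes in these levels was not tested. Of the 23 neighbouring pairs in the order of the receptors per kilobase, 12 have overlapping intervals, all of them at or below *Fas*.

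Ligands and receptors were then set side by side in 22 pairs of known partners. Both genes were among the members in 19 pairs, and 3 had *Cd70*, *Cd40lg* or *Ltb*, ligand genes under other symbols. The pairs reuse genes, with 16 ligands and 19 receptors, and the list is not complete. *Eda*, at 13.8 per kilobase against 0.926 for *Edar* and 5.22 for *Eda2r*, was left out. So was *Lta*, at 3.77 against 219 for *Tnfrsf1a* and 48.6 for *Tnfrsf1b*. The counts below hold for the chosen pairs only. Per kilobase the receptor was higher in 16 pairs and the ligand in 6. The intervals lay apart in 20 pairs, 15 with the receptor and 5 with the ligand higher. In 10 of the 20 pairs with a ligand above 0 the receptor was over 10 times as high as its ligand. *Tnfrsf1a* was 159 times and *Tnfrsf1b* 35.4 times as high as *Tnf*, *Fas* 15.1 times as high as *Fasl*, and *Ltbr* 31.2 times as high as *Ltb*. The ligands *Tnfsf4* and *Cd40lg* were listed at 0, with *Tnfrsf4* at 17.4 and *Cd40* at 5.502 per kilobase.

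The ligand was the higher partner in a few pairs. *Tnfsf9* had 14.9 per kilobase and its receptor *Tnfrsf9* had 1.18. Of the exon bases of *Tnfsf9*, 14.9% are shared with *Gm11110* on the opposite strand, which had a base mean of 19.5. The strand setting of the counting is not given, so the level of *Tnfsf9* is uncertain. *Tnfsf10* had 21.4 and its death receptor *Tnfrsf10b* had 5.22. No other receptor was paired with *Tnfsf10*, so this does not place the ligand above all receptors that bind it. *Tnfsf13b* had 25.9, above *Tnfrsf13b* at 14.7 and *Tnfrsf17* at 3.99, while it could not be told from *Tnfrsf13c* at 27.0, since their intervals overlap. *Tnfsf12* and *Tnfrsf12a* were the pair with both partners above the median gene, at 75.2 and 178. Per kilobase of coding sequence, computed for the 19 pairs of members alone, 2 pairs turned, since *Tnfsf8* and *Tnfsf13b* then lay above *Tnfrsf8* and *Tnfrsf13c*. The exons of *Tnfsf12* and *Tnfsf13* are shared by 48.3% and 60.0% with *Tnfsfm13*, a read-through gene that was listed at 0, and how the authors' counting treated reads on shared exons is not given in the sources used here, so both levels are uncertain.

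**Figure D3:**
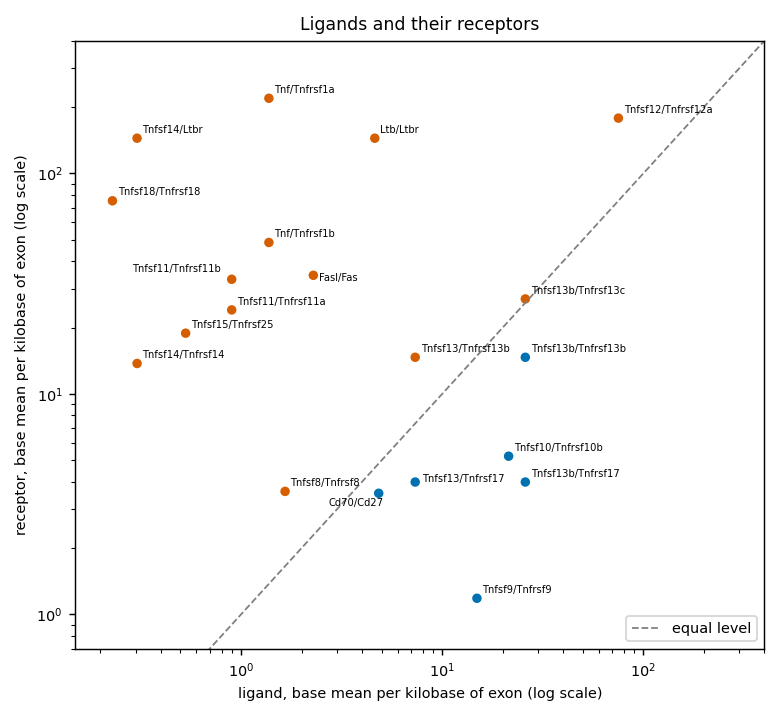
Base mean per kilobase of exon of the ligand (horizontal, log scale) and the receptor (vertical, log scale) in the 20 pairs whose ligand is above 0; orange points have the higher receptor, blue points the higher ligand, and the dashed line marks equal levels. *Tnf* with *Tnfrsf1a* and *Tnfsf14* with *Ltbr* lie far above the line, and *Tnfsf9* with *Tnfrsf9* lies farthest below it.

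The TRAF adaptors, which link receptors to kinases and carry ubiquitin ligase activity in most members, spanned a wide range. *Traf3*, known as a brake on the non-canonical NF-kB pathway, was the highest with a base mean of 2454 or 334 per kilobase (interval 329.8 to 338), on chromosome 12 from 111166370 to 111267153. *Traf7* followed with 1110.4 or 189 per kilobase. *Traf6*, the adaptor of Toll-like and interleukin-1 receptors, had 670.1 or 85.0 per kilobase, *Traf4* had 262 or 79.5 and *Traf2*, the adaptor of the TNF receptors, had 316 or 62.0. The lymphoid adaptors *Traf1* and *Traf5* were the lowest, at 76.4 and 34.9, or 8.66 and 7.64 per kilobase with overlapping intervals. *Traf3* was 38.5 times as high as *Traf1* per kilobase (interval 35.9 to 41.5), or 23.3 times per kilobase of coding sequence. The 3 genes named for binding TRAF proteins were *Traf3ip1*, a gene of ciliary transport, at 635, *Traf3ip2*, the adaptor of interleukin-17 receptors, at 272, and *Traf3ip3* at 49.2.

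The *Tnfaip* genes were named for induction by TNF or for likeness to such a gene, and they do not form a single protein family. *Tnfaip1* had a base mean of 1059.5 or 280.2 per kilobase and *Tnfaip6*, which encodes a secreted hyaluronan-binding protein, had 511 or 299 per kilobase. The other 6 lay between 8.15 and 42.2 per kilobase, below the median gene. Among these were *Tnfaip3*, the gene of a deubiquitinase that restrains NF-kB, at 106.7 or 14.8 per kilobase, and the *Tnfaip8* family with *Tnfaip8* at 157.6, *Tnfaip8l3* at 66.6, *Tnfaip8l1* at 51.0 and *Tnfaip8l2*, an immune inhibitor, at 47.4. *Tnfaip2* had 127.6.

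All 5 NF-kB subunits were above the base mean of 10. *Rela*, whose product pairs with that of *Nfkb1* in the canonical dimer, had 785 or 256 per kilobase (interval 250.1 to 261), on chromosome 19 from 5637483 to 5648130. *Nfkb1* had 749.8, which was 62.2 per kilobase, since the union of all its annotated exons is long at 12061 bases. On this scale *Rela* was 4.11 times as high (interval 3.98 to 4.25). Per kilobase of coding sequence the ratio was 1.82. *Nfkb2* and *Relb*, which act in the non-canonical pathway, had 188 and 126.8, or 41.0 and 32.6 per kilobase. *Rel*, best known from lymphocytes, had 190.7 or 25.5 per kilobase. It was the lowest subunit per kilobase of exon, and the third of the 5 per kilobase of coding sequence, where *Nfkb2* came last. *Rela* was the highest and *Nfkb1* the second on both scales.

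The IkB genes, whose products hold NF-kB dimers in the cytoplasm, divided into a high and a low pair. *Nfkbia*, on chromosome 12 from 55489410 to 55492647, had 626 or 389 per kilobase (interval 379 to 398) and *Nfkbib* had 517 or 238. *Nfkbia* was 1.63 times as high as *Nfkbib* (interval 1.57 to 1.69). *Nfkbie* had 85.8 and *Nfkbiz*, which encodes a nuclear member that acts on transcription, had 143.6, or 28.2 and 28.6 per kilobase with overlapping intervals. On the opposite strand, *Nfkbib* shares 14.5% of its exon bases with *Ccer2*, at a base mean of 70.8, and 1.94% with *Sirt2*, at 6256. The strand setting of the counting is not given in the sources used here.

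Several members are textbook targets of NF-kB themselves, which closes a feedback loop, and their promoters were therefore searched for the NF-kB consensus, a run of GGG, a purine, any 2 bases, 2 pyrimidines and CC, on both strands. The windows were RefSeq promoters of GRCm38.p6 from 250 bases before to 50 after a gene's start, and 51 of the 63 members had at least 1. A match was found in 11 of these 51 members (21.6%) and in 11.8% of the 15883 genes above 0 that had a window, or 22.4% against 10.2% of windows. Matches lay in 2 of 3 IkB genes, 2 of 3 NF-kB subunits, 3 of 7 *Tnfaip* genes, 3 of 19 receptors, 1 of 7 TRAF genes and 0 of 10 ligands. The 11 members with a match had a median base mean of 106.7, and the 40 without of 73.8, while over all genes the medians were 378 and 285. The 40 without a match include all 10 ligands that had a window, and ligands were the lowest role. The member medians therefore differ in the mix of roles and do not show how level goes with a match. A match is a stretch of letters and no measured binding site. *Cd40*, *Nfkb1*, *Nfkbiz*, *Relb*, *Tnfaip8*, *Tnfrsf10b*, *Tnfrsf11b*, *Tnfrsf22*, *Tnfrsf26*, *Tnfsf12*, *Tnfsf9* and *Traf3ip2* were without a window.

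The matches of the NF-kB feedback genes and of *Tnfrsf9*, the lowest receptor per kilobase, are shown with 10 bases on each side, 5′ to 3′ on the strand of the gene, with the match in capitals. That of *Nfkbia* starts 29 bases before the gene's start (GRCm38.p6, chr12:55492657-55492686, minus strand), that of *Nfkbie* 106 bases before (chr17:45555584-45555613, plus strand) and that of *Rel* 92 bases before (chr11:23771042-23771071, minus strand). For *Nfkb2* the match 39 bases before 1 of its starts is shown (chr19:46304688-46304717, plus strand), for *Tnfaip3* the one 125 bases before (chr10:19015516-19015545, minus strand) and for *Tnfrsf9* the one 43 bases before (chr4:150927946-150927975, plus strand). The matches of *Nfkb2*, *Tnfaip3* and *Tnfrsf9* lie before a RefSeq start and inside the gene as GENCODE draws it. In *Nfkbia* the consensus reads on the opposite strand.
Nfkbia: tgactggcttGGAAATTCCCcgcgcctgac
Nfkbie: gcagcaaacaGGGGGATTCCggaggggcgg
Rel: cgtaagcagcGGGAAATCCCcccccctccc
Nfkb2: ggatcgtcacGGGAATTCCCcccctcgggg
Tnfaip3: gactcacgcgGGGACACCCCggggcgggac
Tnfrsf9: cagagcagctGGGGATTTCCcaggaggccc
The base means of the genes shown ran from 3.22 for *Tnfrsf9* and 85.8 for *Nfkbie* to 626 for *Nfkbia*. *Traf3*, which also had a match and is not shown, had 2454. *Tnfrsf9* was picked for display by its low level, so this range does not show how level goes with a match.

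The pathway genes that the symbols do not cover were followed in a list of 45, including 1 at 0. Of these, 37 had a base mean of at least 10, a level that 75.9% of all genes above 0 reached. Of the 11 superfamily and related genes under other symbols 5 reached it. *Relt*, a receptor gene, was the highest of these at 787 or 239.96 per kilobase, *Ngfr*, the neurotrophin receptor with a death domain, had 156 and *Eda* had 93.99. The lymphotoxin genes *Lta* and *Ltb*, which lie beside *Tnf*, had 5.22 and 7.01, and *Cd70* had 4.07. The signalling genes downstream of the receptors were higher, since 32 of 34 reached a base mean of 10 and their median per kilobase was 104.9. *Rbck1*, a subunit of the linear ubiquitin ligase, had 419 per kilobase, the highest of the list, followed by the kinase gene *Tbk1* at 283 and by *Tab2*, whose product binds the kinase encoded by *Map3k7*, at 275. The lowest above 0 were *Tnip3* at 0.046, *Edaradd* at 0.459 and *Edar* at 0.926 per kilobase, and *Cd40lg* was listed at 0. The IkB kinase subunits *Chuk*, *Ikbkb* and *Ikbkg* had base means of 949, 1028 and 1049.9. *Ripk1* had 219, while *Ripk3*, the kinase of necroptosis, had 8.72, and the death domain adaptors *Tradd* and *Fadd* had 203 and 97.9.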

How the data were processed

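RNA of the spinal cord of 5 WT and 5 SOD1 G93A females was sequenced as stranded, paired-end mRNA libraries. According to the methods and the submitters' processing notes, the authors filtered reads with Fastp, aligned them to mm10 (HISAT2 2.1.0), assigned the uniquely mapped ones to genes (featureCounts 2.0.2) and compared the groups with DESeq2. The gene annotation and the strand setting are not given in the sources used here. The authors deposited 1 table. Its base mean, a signal made of read counts divided by size factors and averaged by the authors over all 10 libraries, was the only column used. The other columns hold the log2 fold changes, standard errors, Wald statistics and p-values of the authors' own comparison, which were neither used nor printed, so no test between genotypes was made.

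Members and lists were chosen with earlier results of these data known, and the pairs of ligands and receptors, the ratios, the motif and the reading of single reads were chosen after the data were seen. Some marker genes are not reported here. All members could be named. In each role the highest and lowest member per kilobase and every member under a base mean of 10 were given, and of the pathway genes the 3 highest and 3 lowest per kilobase. Symbols of all 63 members and 97.1% of genes above 0 were matched to GENCODE M21 for exon lengths, taken as the union of all exons. Size factors were found by least squares over genes with a base mean under 1. Intervals are exact 95% Poisson intervals of the reads expected over all libraries, or exact binomial intervals for ratios and shares, and cover counting error only. Reads per library were read only from base means under 1. The recovery of size factors and of reads per library was tested on simulated counts. Python 3.11.15, numpy 2.4.6, pandas 2.3.3, scipy 1.17.1 and matplotlib 3.10.9 were used.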

Additional observations from a re-analysis of the deposited data

How the results depend on the processing

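The number of members with a base mean of at least 10, 52, was 54 with a floor of 5, 47 with a floor of 20 and 49 without the TRAF-interacting proteins. The number above the median gene, 18, was 12 when the median was taken over genes that reached 10, 18 per kilobase of exon, 15 per kilobase of coding sequence and 19 with the superfamily genes under other symbols. The share of the 5 highest members, 48.8%, was 42.2% per kilobase of exon, 44.2% per kilobase of coding sequence and 51.5% without the TRAF-interacting proteins. *Tnfrsf21*, *Traf3* and *Tnfaip1* were among the 5 highest on all 3 scales, joined by *Nfkbia* and *Tnfaip6* per kilobase of exon and by *Tnfrsf19* and *Tnfrsf12a* per kilobase of coding sequence. Leaving out a library was not possible with a pooled mean. The 11 members under a base mean of 10 rest on the fewest reads and have the widest intervals relative to their levels.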

Other observations

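Some members lie next to each other in the genome. In GRCm38, 18 of the 64 genes matched by symbol lie within 100 kb of another one, in 8 groups, of which 4 are given here. *Cd27*, *Ltbr* and *Tnfrsf1a* lie on chromosome 6 between 125232622 and 125362484, with base means of 8.25, 340.2 and 568. *Tnfrsf1b* and *Tnfrsf8* lie on chromosome 4 between 145213463 and 145315164, with 185.7 and 12.5. *Tnfsf4* and *Tnfsf18* lie on chromosome 1 between 161395409 and 161505290 and were listed at 0 and at 0.474. *Tnfsf9* and *Tnfsf14* lie on chromosome 17 between 57105325 and 57194177, with 19.2 and 0.562.

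Of the 63 members, 16 share exon bases with another annotated gene, 5 of them with a gene on the same strand. Among overlaps on the opposite strand, *Nfkb2* shares 6.52% of its exon bases with *Psd*, at a base mean of 1975. *Traf3ip2* shares 7.95% with *E130307A14Rik*, at 393.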
